A study of Mus musculus with 10 samples.

Results

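Imprinted genes are transcribed from 1 parental chromosome, and most lie in clusters that share a differentially methylated control region and hold both coding and noncoding transcripts. The genes described here are 10 members of such clusters, chosen by name and found by their Ensembl identifiers among the 55487 genes of the count tables: Igf2, H19, Igf2r, Dlk1, Meg3, Rian, Mirg, Cdkn1c, Peg3 and Grb10. All 10 passed the filter on low counts, which left 22596 genes for testing. Their levels were followed through 5 stages of blood formation from mouse embryonic stem cells.

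Nuclear RNA was sequenced from HM-1, an established mouse embryonic stem cell line used for gene targeting, and from cells derived from it by differentiation in serum. The ES stage was undifferentiated HM-1 kept with LIF, and the HB stage (hemangioblast) was the FLK1+ fraction of embryoid bodies of 3 days. HB cells were cultured further in blast medium, which held VEGF, IL-6 and D4T conditioned medium. They were then sorted into the first hemogenic endothelium (HE1: KIT+ TIE2+ CD41-), the second hemogenic endothelium (HE2: KIT+ TIE2+ CD41+) and hematopoietic progenitors (HP: KIT+ TIE2- CD41+). Each stage had 2 libraries, all 5 stages came from the same line, and no stage carried a treatment other than the differentiation protocol. HE1, HE2 and HP therefore also differed from HB in medium and added cytokines. The labels do not say whether the libraries of a stage came from separate cultures, while the study calls its expression replicates biologically independent. The p-values measure the spread between these libraries. Reads were not split by parental allele, so that the levels are sums over both chromosomes.

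In the growth pathway, Igf2 encodes a secreted growth factor of the embryo and is known as a paternally expressed gene. H19, its neighbour, is a maternally expressed noncoding RNA that shares enhancers with it. Igf2r encodes the receptor that carries IGF2 to the lysosome and so lowers its amount, and Grb10 encodes an adaptor that binds the insulin and IGF1 receptors and dampens their signal. Dlk1 encodes a membrane protein related to the Notch ligands. Meg3, Rian and Mirg are maternally expressed noncoding RNAs of the same cluster as Dlk1 and carry small RNAs within them. Cdkn1c encodes the cyclin-dependent kinase inhibitor p57, and Peg3 encodes a zinc finger protein.

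In mm10 the members lie on 4 chromosomes, and only Dlk1, Meg3, Rian and Mirg lie on the plus strand. Igf2 spans chr7:142650766-142666816 and H19 spans chr7:142575529-142578143, with 72.6 kb between them. Cdkn1c spans chr7:143458339-143461050 and Peg3 lies far from both at chr7:6703892-6730431. Igf2r spans chr17:12682406-12769664 and Grb10 spans chr11:11930508-12038683. On chromosome 12, Dlk1 spans chr12:109452823-109463336, Meg3 spans chr12:109541001-109571726, Rian spans chr12:109603808-109661716 and Mirg spans chr12:109729764-109749460. H19, Meg3 and Mirg are annotated as long intergenic noncoding RNAs and Rian as a processed transcript, and the other 6 members are protein coding.

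The noncoding members are host genes of microRNAs, which is why their sequences are shown here. Of the mature mouse microRNAs in RefSeq (GRCm38.p6), 2 lie in H19, 3 in Meg3, 6 in Rian and 26 in Mirg, all on the strand of the host, and 2 lie in an intron of Igf2. The libraries measured host transcripts and not mature microRNAs. Representative mature sequences are printed 5' to 3' with the seed, bases 2 to 8, in capitals. The 2 from H19 lie within an exon at chr7:142577078-142577133, and miR-770-5p lies within an exon of Meg3 at chr12:109563710-109563731. miR-370-3p lies in an intron of Rian at chr12:109618305-109618326 and miR-410-3p lies within an exon of Mirg at chr12:109743764-109743784.
miR-675-5p: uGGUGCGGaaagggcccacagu
miR-675-3p: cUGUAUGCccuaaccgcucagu
miR-770-5p: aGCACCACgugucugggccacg
miR-370-3p: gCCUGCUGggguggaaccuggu
miR-410-3p: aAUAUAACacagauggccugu

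Among the 39 mature sequences of these hosts, the only seed that occurred more than once was GGUUGCC, shared by miR-453 and miR-496a-5p, both in introns of Mirg. They lie at chr12:109735669-109735692 and chr12:109739132-109739152. The strings below carry that seed in capitals.
miR-453: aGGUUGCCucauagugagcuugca
miR-496a-5p: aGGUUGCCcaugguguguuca

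Promoter windows of RefSeq run from 250 bases before to 50 bases after an annotated start. CpG number is of interest at these genes because their control regions are methylated on 1 parental chromosome. The windows were taken at annotated starts and were not chosen to cover those control regions. A window was found for 8 members. The windows below show the start of Meg3 (chr12:109540746-109541045, plus strand), whose level was highest in ES, the start of its neighbour Dlk1 (chr12:109452573-109452872, plus strand), whose level was lowest in ES, and 1 of the 4 starts of Igf2 (chr7:142658755-142659054, minus strand). Every CpG is in capitals.
Meg3: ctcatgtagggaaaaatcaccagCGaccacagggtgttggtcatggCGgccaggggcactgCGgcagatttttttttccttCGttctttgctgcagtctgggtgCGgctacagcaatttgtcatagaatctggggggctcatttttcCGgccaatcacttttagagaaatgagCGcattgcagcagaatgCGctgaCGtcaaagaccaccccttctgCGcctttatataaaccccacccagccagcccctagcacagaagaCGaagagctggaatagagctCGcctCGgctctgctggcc
Dlk1: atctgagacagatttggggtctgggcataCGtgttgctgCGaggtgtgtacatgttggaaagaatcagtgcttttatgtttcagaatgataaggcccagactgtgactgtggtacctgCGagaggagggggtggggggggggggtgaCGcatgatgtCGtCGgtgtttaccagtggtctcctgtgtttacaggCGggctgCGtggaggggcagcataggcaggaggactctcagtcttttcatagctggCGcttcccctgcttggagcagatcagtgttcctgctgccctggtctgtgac
Igf2: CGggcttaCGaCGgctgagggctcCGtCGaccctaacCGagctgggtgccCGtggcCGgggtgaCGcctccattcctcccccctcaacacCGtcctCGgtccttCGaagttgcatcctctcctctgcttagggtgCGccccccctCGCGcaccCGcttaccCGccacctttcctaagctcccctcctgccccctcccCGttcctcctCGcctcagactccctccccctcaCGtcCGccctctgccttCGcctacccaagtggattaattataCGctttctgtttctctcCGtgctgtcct

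The Meg3 window held 13 CpG and the letters TATAAA, which 13.6% of all 32851 windows hold on either strand. That of Dlk1 held 9 CpG and the printed Igf2 window held 24, against a median of 7 over all windows. The other Igf2 windows held 2, 14 and 7 CpG. Igf2r held 34, the pair of Grb10 windows held 45 and 9, Peg3 held 13, Mirg held 10, Rian held 0 and the second Meg3 window held 1. The letters GGGCGG, found in 35.7% of all windows on either strand, were in windows of Igf2, Igf2r and Grb10. GCCATNTT, found in 6.05% of all windows, was in none of these members' windows.

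Library totals lay between 24920434 and 58782055 counts, and 3 counts, used as the lower limit of detection, correspond to 0.0532 to 0.126 CPM. CPM here are counts relative to library totals scaled by TMM factors. The stage labels were compared with marker genes. Some of these encode antigens of the sort, namely Kdr (FLK1), Itga2b (CD41), Kit and Tek (TIE2), so that the lists are not independent of the gates. The 5 ES markers summed to 1920 and 2000 CPM at ES and to at most 98.8 CPM elsewhere. The 6 blood markers summed to 985 to 1390 CPM at HE2 and HP and to at most 311 CPM in the earlier stages. The 5 HB markers did not mark HB alone, with 1430 and 1750 CPM at HB, 1280 and 734 at HE1, and 936 and 636 at HE2. HE1 replicate 2 stood apart from HE1 replicate 1, with 67.0 against 6.31 CPM of ES markers, 1730 against 859 CPM of the 6 mesenchyme and muscle markers and 1740 against 3000 CPM of the 6 endothelial markers. HE2 replicate 1 lay nearer to HE1 than HE2 replicate 2 did, with 1900 against 1330 CPM of endothelial markers. Where leaving out 1 library ended a call of a named gene other than a marker, this is said beside the call.

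Of the 10 members, 7 had their highest mean in HE1 (Igf2, H19, Igf2r, Dlk1, Cdkn1c, Peg3 and Grb10) and 3 had it in ES (Meg3, Rian and Mirg). Together they took 0.16% and 0.164% of all counts in the ES libraries, 1.22% and 1.04% in HE1, and 0.224% and 0.25% in HP. Levels per kilobase were divided by all annotated exon bases of a gene, not by the length of a transcript. They come from nuclear RNA, so that they rank nuclear signal and not total RNA of coding and noncoding genes. Per kilobase of exon, the order of mean levels in ES was led by Igf2r (48.5 CPM per kb), Meg3 (16.9), Peg3 (15.4) and Rian (15.3), with Dlk1 last (1.0). The ES libraries did not separate Peg3 (15.1 and 15.7) from Rian (15.3 in both). In HE1 it was led by H19 (1390 CPM per kb), Igf2 (572) and Peg3 (193), with Dlk1 (4.46) and Mirg (4.19) lowest. The order of these last 2 was not the same in both HE1 libraries, since Dlk1 read 5.49 and 3.43 CPM per kb and Mirg read 4.63 and 3.74. The plot of members by library shows these profiles.

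**Figure D1:**
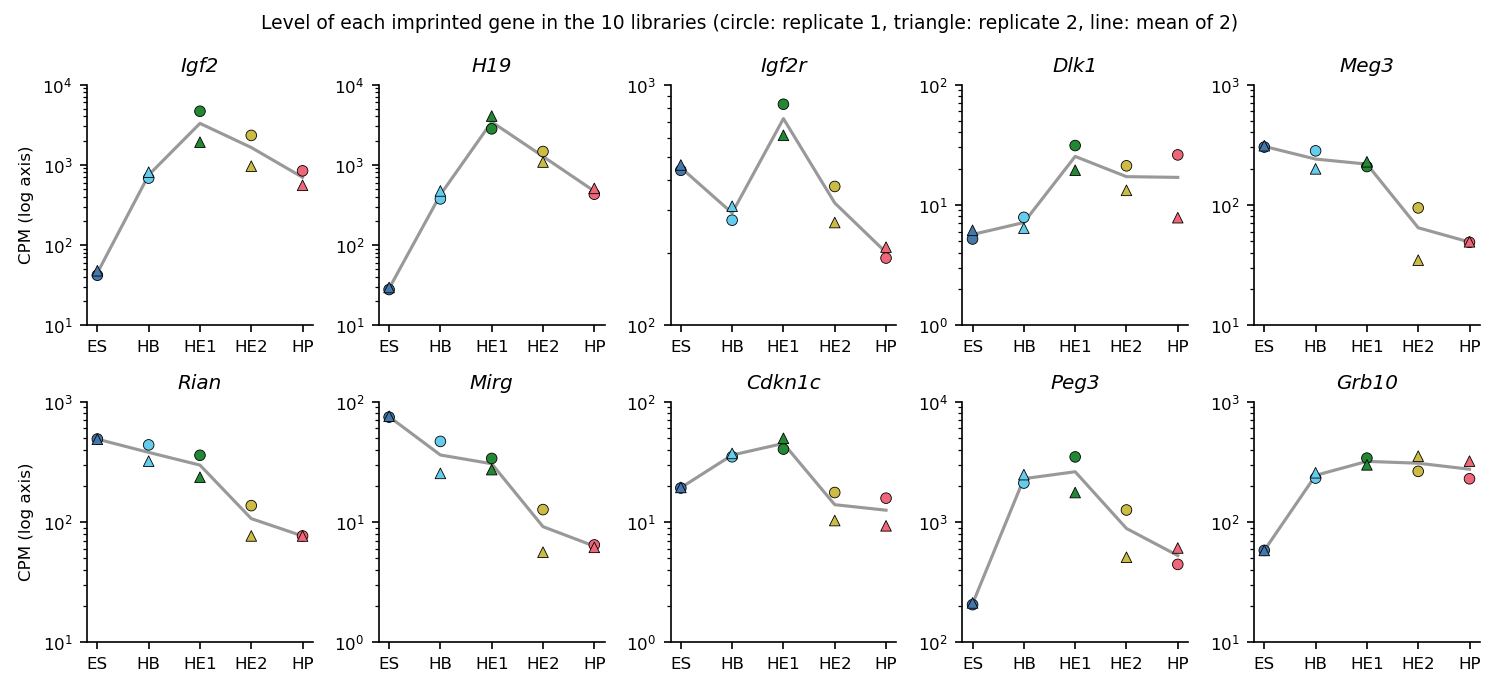
Level of each of the 10 genes in the 10 libraries, in TMM-scaled CPM on a log axis that differs between panels, by stage; circles are replicate 1, triangles replicate 2 and lines join the means of 2 libraries. Igf2 and H19 climb from 44.8 and 28.7 CPM in ES to 3280 and 3420 CPM at HE1, while Meg3, Rian and Mirg decline from ES to HP.

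Igf2 and its noncoding neighbour H19 had the widest ranges of the 10 members, and both were lowest in ES and highest in HE1. For Igf2 the 2 libraries read 41.9 and 47.7 CPM at ES, 681 and 807 at HB, 4640 and 1910 at HE1, 2320 and 959 at HE2, and 839 and 554 at HP. The HE1 and HE2 libraries overlapped, as did those of HB and HP, both ES libraries were below all others, and in HE1 and HE2 replicate 1 was more than 2-fold above replicate 2. H19 read 27.8 and 29.5 CPM at ES, 375 and 471 at HB, 2800 and 4040 at HE1, 1460 and 1080 at HE2, and 429 and 507 at HP. Only the HP and HB libraries overlapped, and here HE1 replicate 2 was the higher of its pair, opposite to Igf2. From the lowest to the highest stage mean the difference was 119-fold for H19 and 73.2-fold for Igf2. The 2 genes together took 0.00668% and 0.00739% of counts in ES and 0.71% and 0.672% in HE1.

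Igf2 rose from ES to HB by a log2 fold change of 4.05 (SE 0.504; adjusted p = 0.000134, with edgeR's quasi-likelihood F test and the method of Benjamini and Hochberg over all tested genes), and H19 rose by 3.88 (SE 0.261, edgeR adjusted p = 2.79e-06). Both rose again from HB to HE1, Igf2 by 2.14 (SE 0.463, edgeR adjusted p = 0.00633) and H19 by 3.02 (SE 0.25, edgeR adjusted p = 2.74e-05). Without HE1 replicate 2 these values were 2.65 and 2.73, and without HE1 replicate 1 they were 1.31 and 3.21, both still called. The rise of Igf2 into HE1 fell just short of the threshold when HB replicate 1 was left out (log2 fold change of 1.95, edgeR adjusted p = 0.0505), and H19 passed it without any single library. From HE1 to HE2, H19 fell by 1.43 (SE 0.236, edgeR adjusted p = 0.00716), a call that was lost without HE2 replicate 2 (edgeR adjusted p = 0.0565). The change of Igf2 at this step, a log2 fold change of -0.996 (SE 0.448, edgeR adjusted p = 0.14), was not called and lay between -0.20 without HE1 replicate 1 and -1.76 without HE2 replicate 1. In the latter case it passed both criteria (edgeR adjusted p = 0.0307). In HP, Igf2 remained 15.6-fold and H19 16.3-fold above ES.

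Markers of other cell types followed part of this course. Mesenchyme and muscle markers, all 6 above 3 counts in every library, summed to 134 and 149 CPM at ES, 95.3 and 89.5 at HB, 859 and 1730 at HE1, 978 and 635 at HE2, and 1180 and 578 at HP. Endothelial markers summed to 352 and 368 CPM at ES, 294 and 263 at HB, 3000 and 1740 at HE1, 1900 and 1330 at HE2, and 784 and 720 at HP. Both sums were lower in HB than in ES, where Igf2 and H19 rose, and higher in HE1 than in HB, as were Igf2 and H19. From ES to HB, 1 of the 6 mesenchyme and muscle markers was called as higher and 3 as lower, and of the 6 endothelial markers 3 were called as higher and 2 as lower, with a median log2 fold change of 2.62. The fall of the endothelial sum at this step lay in Pecam1 and Kit, its most abundant genes in ES. The HP libraries spanned those of HE2 in the mesenchyme and muscle sum. The 5 markers of extraembryonic endoderm, a tissue that also makes IGF2, summed to 2.7 and 2.78 CPM at ES, 59.4 and 67.7 at HB, 162 and 90.4 at HE1, 55.1 and 14.1 at HE2, and 3.6 and 13.2 at HP, and 2 to 5 of them were above 3 counts in a library. As for Igf2, the sum was highest in HE1, and replicate 1 was the higher in HE1 and HE2. Most of the sum after ES was Sox7, which endothelium also expresses, with 161 and 87.7 CPM at HE1 and 54.0 and 13.8 at HE2. Afp was at 0 counts in 4 libraries and Ttr in 7, and neither exceeded 15 counts in any. Apoa1 had 3 to 27 counts, and Amn was highest in ES (2.06 and 2.07 CPM). The part of these marker lists in the levels of Igf2 and H19 was not tested. In bulk samples, fewer cells of a type and less RNA per cell cannot be told apart.

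The ratio of H19 to Igf2 counts showed no detectable difference between stages. It was 0.665 and 0.619 at ES, 0.55 and 0.584 at HB, 0.603 and 2.11 at HE1, 0.63 and 1.12 at HE2, and 0.511 and 0.915 at HP. Replicate 1 of each of the last 3 stages thus stayed within the range of ES and HB or slightly under it, and replicate 2 was above it. Over all ways to divide the 10 libraries into 5 pairs, the 2-sided exact permutation p for a difference in log2 ratio between stages was 0.669 (0.836 after Benjamini-Hochberg adjustment over 5 ratios). The mean log2 ratio ranged from -0.82 at HB (SD 0.0608, n = 2) to 0.18 at HE1 (SD 1.28, n = 2). Igf2 counts were not unique to it, since 62.8% of its exon bases are shared on the same strand with the gene model Gm49394, whose counts equal 96.5% of those of Igf2, and the counting placed such fragments on both. For H19, 3.41% of the exon bases are shared with Mir675, whose counts equal 12.4% of those of H19.

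Antisense and neighbouring transcripts of this interval were low. Igf2os, which runs antisense within Igf2 and was counted by strand, had a mean of 0.894 CPM at ES, 17.6 at HB, 34.5 at HE1, 15.6 at HE2 and 11.4 at HP. It rose from ES to HB by a log2 fold change of 4.27 (SE 0.489, edgeR adjusted p = 7.87e-05) and was not called at any later step. The rise was called without any single library. Ins2, the insulin gene next to Igf2, had no count in any library.

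Igf2r, the receptor that clears IGF2, had a second course, with high levels in ES, a dip in HB and a peak in HE1. It read 440 and 463 CPM at ES, 273 and 312 at HB, 828 and 615 at HE1, 377 and 267 at HE2, and 190 and 211 at HP. The HB and HE2 libraries overlapped, and both HP libraries were below all others. Igf2r rose from HB to HE1 by a log2 fold change of 1.30 (SE 0.205, edgeR adjusted p = 0.00112), fell from HE1 to HE2 by 1.17 (SE 0.205, edgeR adjusted p = 0.0097), and ended 2.25-fold lower in HP than in ES (edgeR adjusted p = 8e-04). The change from ES to HB of -0.62 (SE 0.203) had an edgeR adjusted p of 0.0308 but was under 2-fold. The HE1 to HE2 call was lost on the fold threshold without HE1 replicate 1 (log2 fold change of -0.91) and on both criteria without HE2 replicate 2 (-0.93, edgeR adjusted p = 0.0809).

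Airn, the noncoding transcript antisense to Igf2r and known as the repressor of the paternal Igf2r allele in embryonic tissues, was almost undetected in ES, with 20 and 8 counts (0.355 and 0.23 CPM). It read 6.22 and 3.18 CPM at HB, 29.3 and 47.2 at HE1, 12.4 and 6.57 at HE2, and 6.3 and 12.9 at HP. Airn rose from ES to HB by a log2 fold change of 3.94 (SE 0.569, edgeR adjusted p = 0.000355) and from HB to HE1 by 3.03 (SE 0.47, edgeR adjusted p = 0.00103), and fell from HE1 to HE2 by 2.01 (SE 0.448, edgeR adjusted p = 0.0217). The fall lost its call without HE1 replicate 2 (edgeR adjusted p = 0.119) or HE2 replicate 2 (0.177). Igf2r and Airn were thus both highest in HE1. The mean log2 ratio of Airn to Igf2r counts was -10.57 at ES (SD 0.46), -6.03 at HB (SD 0.817), -4.26 at HE1 (SD 0.79), -5.13 at HE2 (SD 0.296) and -4.47 at HP (SD 0.628; n = 2 in each stage, exact permutation p = 0.0138, adjusted p = 0.0344). The ES libraries were lowest, the HB libraries came next, and of the later stages HE1 and HP overlapped. With 9 libraries the adjusted exact p ran from 0.037 to 0.106, and it was above 0.05 when either ES library, HB replicate 2, or any 1 HE1 or HE2 library was left out. Of the transporter genes of this cluster, Slc22a3 had 3 and 0 counts in ES and 212 and 70 at HP, and was called as higher in HP than in ES (edgeR adjusted p = 0.000121).

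Grb10, the adaptor that dampens insulin and IGF1 receptor signalling, was called as changed at 1 step of the 4. It read 58.2 and 58.1 CPM at ES, 232 and 257 at HB, 340 and 299 at HE1, 264 and 353 at HE2, and 229 and 321 at HP. Every later library was above both ES libraries, and the libraries of HE1 and HE2, of HE2 and HP, and of HP and HB overlapped. Grb10 rose from ES to HB by a log2 fold change of 2.07 (SE 0.202, edgeR adjusted p = 2.86e-05), and the 3 later steps gave 0.38 (SE 0.195), -0.05 (SE 0.194) and -0.17 (SE 0.194), none of them called. In contrast, its neighbour Cobl fell from a mean of 132 CPM in ES to 2.81 in HB (edgeR adjusted p = 9.92e-05) and 1.43 at HP.

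Other genes of IGF signalling were taken as a list of 15, of which 14 were tested. From ES to HP 7 were called as higher (16.7% of all tested genes) and 3 as lower (21.9% of all tested genes), with a median log2 fold change of 0.71 against -0.01 over all tested genes, and the called genes with the largest changes were Igf1, Igfbp4, Igfbp3 and Igfbp5. Igf1, the second ligand of the pathway, went from 16 and 7 counts in ES (0.284 and 0.201 CPM) to 107 and 56.4 CPM at HP, with its highest mean of 168 CPM at HE2. Igfbp4, a binding protein that holds IGFs in the extracellular space, had a mean of 12.1 CPM at ES, 488 at HB and 125 at HP. Igfbp5 rose from 2.48 to 17.9 CPM between ES and HP (log2 fold change of 2.85, SE 0.349, edgeR adjusted p = 7.5e-05), and Igfbp3 fell from 119 to 12.2 CPM (log2 fold change of -3.28, SE 0.296, edgeR adjusted p = 9.58e-06). Igf1r, the receptor that transmits the signal, had a mean of 148 CPM at ES and 296 at HP, and Igf2bp1, which encodes an RNA-binding protein named for its binding to Igf2 mRNA, stayed between 1030 and 1260 CPM with no call.

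**Figure D2:**
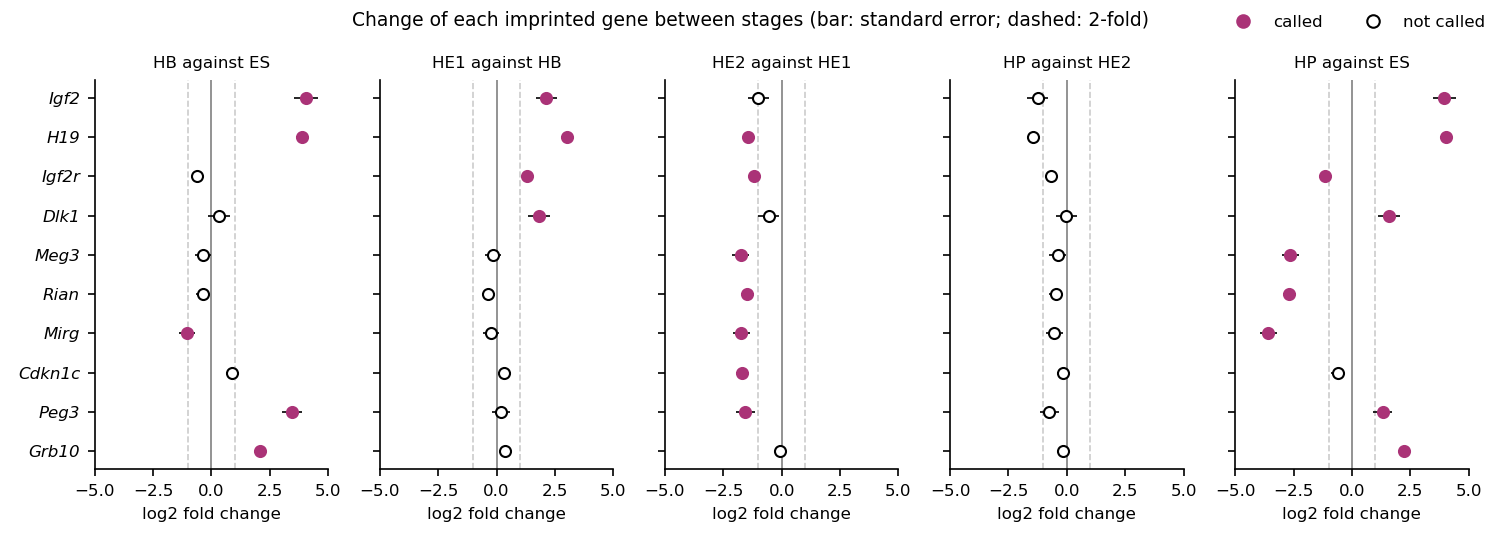
Log2 fold change of each of the 10 genes in 5 comparisons of stages, later against earlier stage, from edgeR's quasi-likelihood fit; bars are standard errors, dashed lines mark 2-fold and filled points passed an adjusted p under 0.05 with at least 2-fold. From HE1 to HE2, 7 genes are filled on the lower side and none on the higher side, and no gene is filled from HE2 to HP.

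In the chromosome 12 cluster, the 3 noncoding RNAs fell together from ES to HP. The coding gene Dlk1 had higher means from HE1 on than in ES and HB. Meg3 read 302 and 310 CPM at ES, 281 and 199 at HB, 208 and 228 at HE1, 94.3 and 34.7 at HE2, and 48.8 and 49.3 at HP. Rian, host of many small nucleolar RNAs, read 490 and 488 CPM at ES, 438 and 321 at HB, 359 and 236 at HE1, 137 and 76.7 at HE2, and 76.7 and 76.6 at HP. Mirg, the microRNA host at the far end, read 74.5 and 75.8 CPM at ES, 46.8 and 25.4 at HB, 33.8 and 27.3 at HE1, 12.7 and 5.62 at HE2, and 6.46 and 6.17 at HP. All 3 were highest in both ES libraries and had the same stage order by mean. For each of them the HB and HE1 libraries overlapped and both HE2 libraries were below both HE1 libraries, and HE2 replicate 1 was above HE2 replicate 2.

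The step at which all 3 were called was that from HE1 to HE2. There Meg3 fell by 1.76 on the log2 scale (SE 0.359, edgeR adjusted p = 0.0165), Rian fell by 1.47 (SE 0.281, edgeR adjusted p = 0.013) and Mirg fell by 1.73 (SE 0.36, edgeR adjusted p = 0.0176). At the step from ES to HB Mirg alone of the 3 was called (log2 fold change of -1.06, SE 0.346, edgeR adjusted p = 0.0317), and that call was lost without either ES library (edgeR adjusted p = 0.0846 and 0.0891) and without HB replicate 2 (0.218). From ES to HP all 3 fell, with log2 fold changes of -2.64 for Meg3, -2.67 for Rian and -3.57 for Mirg (edgeR adjusted p = 0.000187, 3.48e-05 and 3.05e-05). These 3 calls held without any single library. At the HE1 to HE2 step the Meg3 call was lost without HE1 replicate 2 (edgeR adjusted p = 0.0716), the Rian call without HE2 replicate 2 (0.0898), and the Mirg call without either of these (0.0518 and 0.103). Without HE2 replicate 1 the changes of Meg3, Rian and Mirg were -2.63, -1.94 and -2.42, and without HE2 replicate 2 they were -1.20, -1.10 and -1.25. Markers of other cell types moved at the same step. All 5 ES markers were called as lower (median log2 fold change of -3.79), their sum going from 6.31 and 67.0 CPM at HE1 to 2.86 and 2.19 at HE2 with every marker above 3 counts. The 4 neural markers summed to 270 and 350 CPM at HE1 and to 186 and 122 at HE2, and 1 of them, Tubb3, was called as lower. The part of either list in the fall of Meg3, Rian and Mirg was not tested.

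The ratios between the noncoding RNAs did not pass the test for a difference between stages. The mean log2 ratio of Rian to Meg3 counts lay between 0.42 at HE1 (SD 0.519) and 0.84 at HE2 (SD 0.425), and was 0.68 at ES and 0.64 in HP (n = 2 each, exact permutation p = 0.879, adjusted p = 0.879). That of Mirg to Meg3 was -2.03 at ES (SD 0.012) and between -2.96 and -2.76 in the other 4 stages (exact permutation p = 0.0825, adjusted p = 0.138). In the ratio of Mirg to Meg3 both ES libraries were above all 8 others. Over the 10 libraries, the root mean square difference between centred log2 profiles was 0.253 for Meg3 and Rian, 0.359 for Rian and Mirg and 0.36 for Meg3 and Mirg, the 3 smallest of the 45 pairs of members. Some exon bases of these hosts are shared with small RNA genes on the same strand, 1.5% for Meg3, 3.35% for Rian and 5.03% for Mirg.

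Dlk1, at the other end of the cluster, was the lowest member per kilobase in ES. It read 5.2 and 6.14 CPM at ES, 7.87 and 6.39 at HB, 31.1 and 19.4 at HE1, 21.1 and 13.2 at HE2, and 26 and 7.82 at HP. Both HE1 libraries were above all ES and HB libraries, the HE1 and HE2 libraries overlapped, the HP libraries spanned from the range of HB to that of HE1, and the pair of HP libraries differed by more than 3-fold. Dlk1 rose from HB to HE1 by a log2 fold change of 1.82 (SE 0.479, edgeR adjusted p = 0.0158), and from ES to HP by 1.58 (SE 0.476, edgeR adjusted p = 0.0171). The first call was lost without HB replicate 1 (edgeR adjusted p = 0.0612), HB replicate 2 (0.111) or HE1 replicate 1 (0.0704). The second was lost without ES replicate 1 (0.0806) or HP replicate 1, where the log2 fold change was 0.46 (edgeR adjusted p = 0.346), while it was larger without HP replicate 2.

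Meg3 counts exceeded those of Dlk1 57.9-fold and 50.4-fold in the ES libraries, 35.6-fold and 31.1-fold in HB, 6.7-fold and 11.7-fold in HE1, 4.47-fold and 2.63-fold in HE2 and 1.88-fold and 6.29-fold in HP. Every ES and HB library was above every later library, and HE2 and HP overlapped. The log2 ratio differed between stages (mean of 5.76 at ES, SD 0.141, and 1.78 at HP, SD 1.23, n = 2 each; exact permutation p = 0.0127, adjusted p = 0.0344). With 9 libraries the adjusted exact p ran from 0.0159 to 0.101, and it was above 0.05 when any library other than those of HP was left out. The direction was the same in each case, with a difference of HP from ES between -4.85 and -3.10 on the log2 scale. These ratios were not scaled by exon length. Per kilobase of exon, the means of Meg3 and Dlk1 in ES were 16.9 and 1.0 CPM. In HP the libraries did not separate the pair, with 2.7 and 2.72 CPM per kb for Meg3 and 4.59 and 1.38 for Dlk1.

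Between Rian and Mirg lie 2 further noncoding gene models of the same strand, named because the plot of this interval shows them. Gm37899 had a mean of 2.91 CPM per kb in ES, 4.19 at HE1 and 0.753 at HP, and B830012L14Rik had 2.76, 3.13 and 0.551. By mean, unlike Meg3, Rian and Mirg, they were not highest in ES, and like them they were lowest in HP. For B830012L14Rik the means of ES, HB and HE1 lay close together (32.3, 34.2 and 36.6 CPM), and no test is given for either model. Rtl1, a coding gene of the cluster that is antisense to microRNAs, was at or below 0.752 CPM in the mean of every stage. Dio3, which inactivates thyroid hormone, read 3.05 and 3.16 CPM at ES, 0.298 and 0.225 at HB, 0.294 and 5.05 at HE1, 0.244 and 0.0635 at HE2, and 0.228 and 0.254 at HP. Its level in HE1 thus rested on replicate 2, and replicate 1, with 7 counts, lay within the range of HB.

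**Figure D3:**
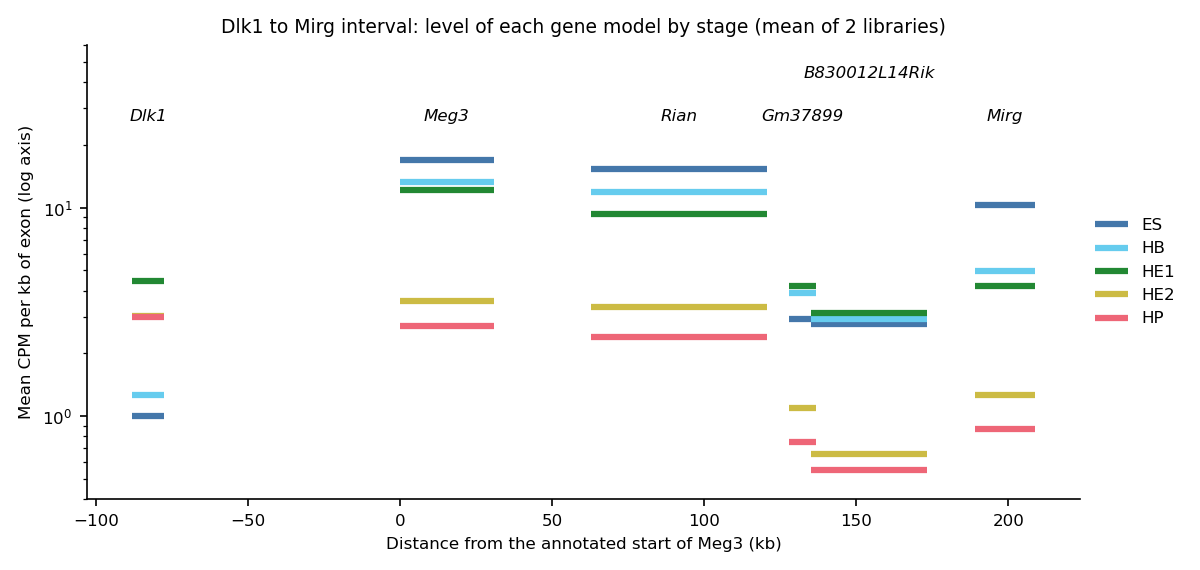
Mean level (2 libraries) of 6 gene models from Dlk1 to Mirg, in TMM-scaled CPM per kb of exon on a log axis, against distance in kb from the annotated start of Meg3; each bar spans a gene model and colours are stages. Meg3, Rian and Mirg lie highest in ES and lowest in HP, Dlk1 lies lowest in ES at 1.0 CPM per kb and highest in HE1 at 4.46, and its HE2 bar (3.03) is hidden by that of HP (2.99).

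Cdkn1c, the cell cycle inhibitor, had a narrow range and was highest in HE1. It read 19.2 and 19.4 CPM at ES, 34.9 and 37.2 at HB, 40.4 and 49.7 at HE1, 17.6 and 10.3 at HE2, and 15.8 and 9.31 at HP. All HB and HE1 libraries were above all others, and HE2 and HP overlapped. Cdkn1c fell from HE1 to HE2 by 1.69 on the log2 scale (SE 0.287, edgeR adjusted p = 0.0081), a call lost without HE2 replicate 2 (0.0538). The step from ES to HB gave 0.90 (SE 0.28, edgeR adjusted p = 0.0253), under 2-fold, and HP against ES gave -0.61 (SE 0.281, edgeR adjusted p = 0.0918). The latter passed both criteria without HP replicate 1 (log2 fold change of -1.05, edgeR adjusted p = 0.021).

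Kcnq1ot1, the noncoding RNA that silences Cdkn1c and its neighbours on the paternal chromosome, read 162 and 141 CPM at ES, 226 and 107 at HB, 314 and 581 at HE1, 247 and 227 at HE2, and 177 and 450 at HP. It rose from HB to HE1 by a log2 fold change of 1.43 (SE 0.449, edgeR adjusted p = 0.0335), and the libraries of HE2 lay within the range of HP. That call was lost without HB replicate 2 (log2 fold change of 0.95, edgeR adjusted p = 0.243) or HE1 replicate 2 (0.92, edgeR adjusted p = 0.214), and narrowly with total counts (1.49, edgeR adjusted p = 0.0542) and with a replicate block (1.37, edgeR adjusted p = 0.0504). Phlda2, a maternally expressed growth regulator next to Cdkn1c, took another course, with 39.6 CPM at ES, 44 at HB, 2.47 at HE1, 0.309 at HE2 and 0.508 in HP (HE1 against HB a log2 fold change of -4.12, SE 0.51, edgeR adjusted p = 0.000269). The HE1 libraries of Phlda2 read 0.883 and 4.06 CPM, and the change from HB was -3.48 without HE1 replicate 1 and -5.63 without HE1 replicate 2, called in both cases. Tspan32, at the far side of this cluster, went from 1.54 CPM in ES to 6.68 at HE1, 67.4 at HE2 and 117 at HP, and was the 1 gene of the same clusters called as higher from HE1 to HE2 (edgeR adjusted p = 0.000612).

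Peg3 had the highest level per kilobase after H19 and Igf2 at HE1, and its gain came at the first step. It read 206 and 213 CPM at ES, 2110 and 2480 at HB, 3480 and 1760 at HE1, 1260 and 510 at HE2, and 445 and 609 at HP. ES was below all others, the HB range lay inside that of HE1, and HE2 overlapped HP. Peg3 rose from ES to HB by a log2 fold change of 3.45 (SE 0.441, edgeR adjusted p = 0.000159) and fell from HE1 to HE2 by 1.57 (SE 0.409, edgeR adjusted p = 0.0359). The fall lost its call without HE1 replicate 1 (log2 fold change of -0.98, edgeR adjusted p = 0.0966), HE2 replicate 2 (0.236) and either HB library (0.0524 in both cases), and without HE2 replicate 1 the log2 fold change was -2.35. HP stayed above ES by 1.33 (SE 0.407, edgeR adjusted p = 0.0188), which was lost without either ES library (0.0736 and 0.0643) or HP replicate 2 (0.101).

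Of the neighbours of Peg3, Usp29 and Zim1 rose from ES to HB and fell from HE1 to HE2, and Zfp264 and Zim2 did not. Usp29, which shares the bidirectional promoter region of Peg3, had a mean of 5.45 CPM at ES, 51.7 at HB, 52.2 at HE1, 16.8 at HE2 and 10.2 at HP. Zim1 had 2.68, 32.7, 28, 7.74 and 5.73 CPM. Both rose from ES to HB (log2 fold changes of 3.24, SE 0.328, and 3.61, SE 0.428, edgeR adjusted p = 3.56e-05 and 9.77e-05) and fell from HE1 to HE2 (-1.63, SE 0.306, and -1.85, SE 0.396, edgeR adjusted p = 0.0121 and 0.0193). The fall of Usp29 lost its call without HE2 replicate 2 (edgeR adjusted p = 0.0541) and that of Zim1 without HE1 replicate 2 (0.0818) or with only the 4 libraries compared (0.0585). Without HE2 replicate 1 the log2 fold changes at this step were -2.24 for Usp29 and -2.84 for Zim1, and without HE2 replicate 2 they were -1.19 and -1.25. The rises were called without any single library. Zim2 had 40 and 41 counts in ES, 20 and 27 at HB and 0 or 1 in each later library. Zfp264, in the same cluster, had 434 and 279 counts in ES and 3 and 1 at HB, and was called as lower (edgeR adjusted p = 0.000135).

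Counted over the members, the steps differed in direction. From ES to HB 4 members rose (Igf2, H19, Peg3 and Grb10), where 11.5% of all tested genes were called as higher, and 1 fell (Mirg), where 17.3% were called as lower. From HB to HE1 4 rose (Igf2, H19, Igf2r and Dlk1; 12.7% of all genes) and 0 fell (8.19% of all genes). From HE1 to HE2 0 rose (3.26% of all genes) and 7 fell (H19, Igf2r, Meg3, Rian, Mirg, Cdkn1c and Peg3; 5.39% of all genes), and the median log2 fold change of the 10 was -1.45 against -0.08 over all tested genes. That count depended on the libraries, being 1 without HE2 replicate 2, 5 without either HE1 library and 8 without HE2 replicate 1. With only the 4 libraries of these stages in the fit it was 3, and the edgeR adjusted p was then 0.0662 for H19, 0.0557 for Igf2r, 0.0507 for Meg3 and 0.0954 for Peg3. Between HP and ES 5 members were higher (Igf2, H19, Dlk1, Peg3 and Grb10; 16.7% of all genes) and 4 lower (Igf2r, Meg3, Rian and Mirg; 21.9% of all genes). These comparisons share libraries, so that they are not independent of each other.

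From HE2 to HP 0 members were called, as were 0 of all 22596 tested genes (percent called of 0 in both directions) by edgeR's quasi-likelihood test. At an unadjusted p under 0.05, 670 genes were higher (2.97%) and 1113 lower (4.93%). Over all genes limma-voom called 35 higher and 27 lower, DESeq2 called 107 and 194, and edgeR with no filter on low counts called 145 and 389. All 10 members had a negative log2 fold change at this step, from -1.44 for H19 to -0.01 for Dlk1, and 6 of them changed sign without HE2 replicate 1, HE2 replicate 2, HP replicate 1 or HP replicate 2. For H19 the value was -1.44 (SE 0.237, edgeR adjusted p = 0.0665), and the adjusted p was 0.0274 with limma-voom and 1.04e-06 with DESeq2. By edgeR it also passed without HE1 replicate 1 (adjusted p = 0.0265), HE1 replicate 2 (0.0295) or HE2 replicate 2 (0.00979), and with no filter on low counts (6.82e-14), where Igf2 passed too (log2 fold change of -1.24, edgeR adjusted p = 2.64e-10).

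**Figure D4:**
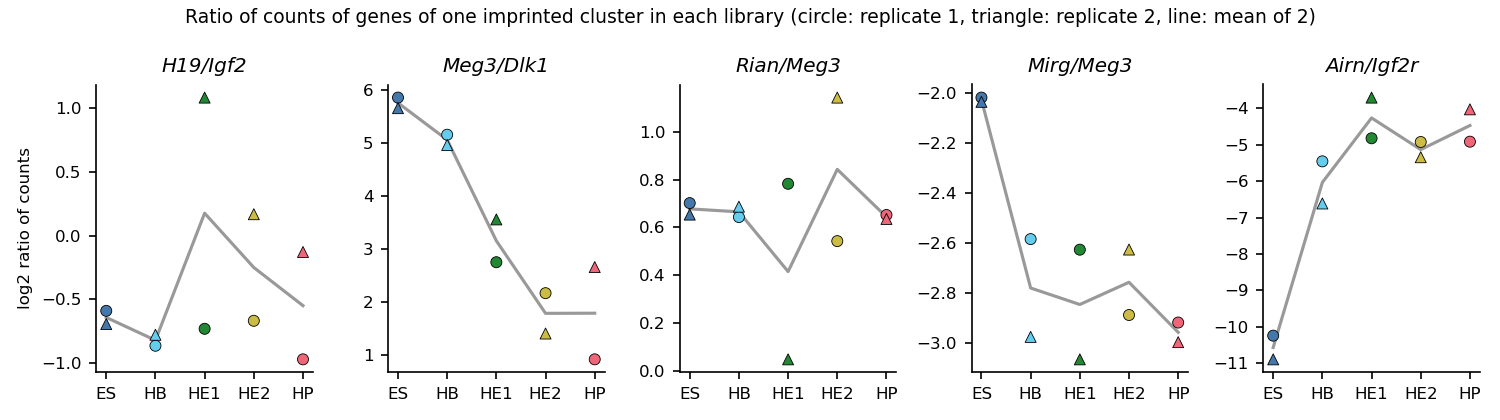
Log2 ratio of counts of 5 pairs of genes of the same cluster in each library by stage; circles are replicate 1, triangles replicate 2, lines join the means of 2 libraries, and the axes differ between panels. Meg3/Dlk1 declines from 5.76 in ES to 1.78 at HP and Airn/Igf2r climbs from -10.57 in ES to -4.26 at HE1, while H19/Igf2 and Rian/Meg3 show no order by stage.

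The genes most like each member were sought by the root mean square difference of centred log2 CPM over the 10 libraries, among 12223 to 12225 tested genes with at least 9 CPM in a stage mean, as a description without test. For Igf2 they were Ets1 (0.296), Adgra2 (0.337) and Hoxb4 (0.396), and for H19 Esam (0.391), Ets1 (0.425) and Arhgap31 (0.432), against medians of 2.15 and 2.36 over all candidates. H19 and Igf2 differed from each other by 0.597. For Peg3 they were Meis2 (0.142), its neighbour Usp29 (0.2) and Dchs1 (0.33).

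For the members highest in ES the profiles most alike were those of Gpr161, Rgmb and Id4 for Meg3 (0.194 to 0.246), Tmod2, Tbc1d9 and Zfp37 for Rian (0.176 to 0.249) and Klf4, Stx3 and Zfp532 for Mirg (0.265 to 0.28). Igf2r was most like Lgmn (0.182), which encodes a lysosomal protease, Tacc2 (0.186) and Plekhb2 (0.189). Grb10 was most like L3mbtl3, Fam126a and Tcf12 (0.196 to 0.203), Cdkn1c most like Maff, Sh3pxd2a and Mxra7 (0.255 to 0.278), and Dlk1 most like Cnn2, B2m and Eva1b (0.373 to 0.385). The 10 points of each profile are 5 stages with 2 libraries each.

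Beyond the members, 29 other genes of the same clusters were listed and 23 of them were tested. From ES to HB 5 were called as higher and 6 as lower, beside 11.5% and 17.3% of all tested genes. From HB to HE1 it was 10 and 3 (12.7% and 8.19% of all genes), from HE1 to HE2 1 and 5 (3.26% and 5.39%), from HE2 to HP 0 and 0 (0% and 0%), and from ES to HP 6 and 9 (16.7% and 21.9%). The largest called changes from ES to HP were those of Zfp264, Slc22a3, Cobl and Phlda2. Thus the members of a cluster did not share a direction with all their neighbours: Cobl fell where Grb10 rose, Zfp264 fell where Peg3 rose, and Cd81 (373 CPM at ES, 129 in HB) was called as lower at the step where its distant neighbours Igf2 and H19 rose. The other 6 listed genes, Ins2 among them, did not pass the filter on low counts.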

How the data were processed

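The authors removed ribosomal reads with RiboDetector, trimmed with Trimmomatic and aligned to mm10 with HISAT2 (v2.2.1). The deposited tables hold raw counts per gene for each of 10 libraries, made with featureCounts (v2.0.1, per the file headers) on the exons of Ensembl 102 genes, in reverse-stranded mode, with a read pair that overlapped several genes counted on each of them, so that genes with shared exon bases share counts. The authors also deposited a matrix of 1 expression score per stage for 15686 genes, which holds 6 of the 10 members (not H19, Meg3, Rian or Mirg) and was not used for values.

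Counts were filtered with filterByExpr, scaled with TMM and fitted with edgeR (v4.0.16, R v4.3.3) to all 10 libraries with stage as the only term and 5 residual degrees of freedom. Stages were compared with the quasi-likelihood F test, and genes were called at a Benjamini-Hochberg adjusted p under 0.05 over 22596 genes with at least 2-fold. Ratios of counts used a prior of 0.5 and an exact permutation test with the F statistic. All members are described; from the lists, counts of calls and up to 4 called genes of largest change are given, and other genes were named after their values were seen. The fit and the ratio test were tested on simulated data. The members and lists were chosen with earlier results of these data known. Alternatives were limma-voom (limma v3.58.1), DESeq2 (v1.42.0), other scaling, filters, thresholds and samples. Totals of 24920434 to 58782055 counts set a detection limit of 3 counts, which covers counting error only. No 2 libraries had identical counts. No window was found in the RefSeq promoter table for H19 and Cdkn1c.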

Additional observations from a re-analysis of the deposited data

How the results depend on the processing

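Of the counts of members called, those below moved by more than 1.5 times under other settings. The 1 member lower in HB than in ES became 0 with total counts and with a 4-fold threshold, and 2 with no fold threshold. The 4 members higher in HE1 than in HB became 2 with a 4-fold threshold. The 7 members lower in HE2 than in HE1 became 3 when only the 4 libraries compared were fitted and 0 with a 4-fold threshold. The 0 members lower in HP than in HE2 became 1 with limma-voom, 1 with DESeq2 and 2 with no filter on low counts. The 5 members higher in HP than in ES became 3 with a 4-fold threshold. Smaller moves were from 4 to 5 higher in HB than in ES with no fold threshold and from 4 to 3 lower in HP than in ES with a 4-fold threshold. Leaving out each library in turn gave 4 higher and 0 to 1 lower from ES to HB, 2 to 4 higher from HB to HE1, 1 to 8 lower from HE1 to HE2, 0 to 1 lower from HE2 to HP, and 3 to 5 higher with 4 to 5 lower between HP and ES. The cause of these shifts was not tested.

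Single values that changed sign were all uncalled. Dlk1 from HE2 to HP read 0.0083 with total counts. Leaving out each library, log2 fold changes from HB to HE1 ran from -0.404 (without HB replicate 2) to 0.0653 (without HB replicate 1) for Meg3, from -0.661 to 0.1997 for Mirg (the same libraries) and from -0.426 (without HE1 replicate 1) to 0.605 for Peg3. From HE1 to HE2 those of Grb10 ran from -0.259 to 0.163, above 0 without HE1 replicate 1 (0.0732) or HE2 replicate 1. From HE2 to HP they ran from -1.13 to 0.603 for Dlk1, from -0.9395 to 0.495 for Meg3, from -1.01 to 0.166 for Mirg, from -0.588 to 0.282 for Cdkn1c, from -1.26 to 0.0437 for Peg3 and from -0.4296 to 0.0586 for Grb10. The values above 0 at this step were without HE2 replicate 1 (Dlk1, Meg3, Mirg, Cdkn1c and Peg3), HP replicate 2 (Dlk1 and Cdkn1c), HE2 replicate 2 or HP replicate 1 (both Grb10).

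Leaving out each library, the difference of HP from ES in log2 ratio was -0.33 to 0.51 for H19/Igf2, -4.85 to -3.10 for Meg3/Dlk1, -0.06 to -0.01 for Rian/Meg3, -0.97 to -0.89 for Mirg/Meg3 and 5.65 to 6.54 for Airn/Igf2r.

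The labels do not say whether the replicate numbers pair libraries of different stages. The correlation of replicate 1 minus replicate 2 between stages ran from -0.316 to 0.213 over 22596 genes, which cannot settle this. A fit with a replicate block left the counts of members called at 4 and 1, 4 and 0, 0 and 7, 0 and 0, and 5 and 4 (higher and lower, in the order of the comparisons above). With the block the adjusted exact p was 0.504 for H19/Igf2, 0.0423 for Meg3/Dlk1, 0.883 for Rian/Meg3, 0.123 for Mirg/Meg3 and 0.0423 for Airn/Igf2r. Over all genes, the calls from HE1 to HE2 (737 higher, 1217 lower) moved to 364 and 171 with only the 4 libraries compared, to 954 and 2864 with no filter, and to 651 and 766 with the block. Without single libraries they ran from 324 to 1368 and from 98 to 2927.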

Other observations

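Imprinted genes of other clusters were taken as a list of 30, all of them tested. From ES to HB 11 were called as higher and 4 as lower, where 11.5% and 17.3% of all tested genes were. From HB to HE1 the counts were 5 and 5 (12.7% and 8.19% of all genes), from HE1 to HE2 2 and 1 (3.26% and 5.39%), from HE2 to HP 0 and 0 by edgeR (0% and 0%), and from ES to HP 10 and 6 (16.7% and 21.9%), with a median log2 fold change of 0.05 over this last comparison against -0.01 for all tested genes. The called genes of largest change from ES to HP were Kcnk9, Rasgrf1, Asb4 and Calcr. Kcnk9, a potassium channel gene, had 2 and 2 counts in the ES libraries and 897 and 534 at HP, with its highest mean of 76.0 CPM at HE2. Asb4, a subunit of ubiquitin ligases found in vascular cells, was at 26 and 12 counts in ES (0.461 and 0.344 CPM), read 211 and 276 CPM at HB, and then had means of 44.9, 18.4 and 6.11 CPM at HE1, HE2 and HP. Calcr, the calcitonin receptor, fell from 2.56 to 0.175 CPM (log2 fold change of -3.85, SE 0.526, edgeR adjusted p = 0.000157). Rasgrf1 had 9 and 3 counts in ES and 0 in both HP libraries, close to the limit of 3 counts, and its call (edgeR adjusted p = 0.0125) was lost without ES replicate 1, HP replicate 1 or HP replicate 2 (0.0951, 0.0752 and 0.0518). Mest, an imprinted gene of the mesoderm, was named after its values were seen. It read 240 and 247 CPM at ES, 823 and 941 at HB, 4120 and 2490 at HE1, 2550 and 1230 at HE2, and 854 and 788 at HP, and rose at the first step by a log2 fold change of 1.86 (SE 0.333, edgeR adjusted p = 0.00135) and at the second by 1.91 (SE 0.333, edgeR adjusted p = 0.00201). Both calls held without any single library.

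Genes known for the upkeep of imprints were a list of 8. From ES to HB 2 were called as lower (17.3% of all tested genes) and from ES to HP 4 (21.9% of all tested genes). By edgeR 0 were called as higher in any comparison (16.7% of all tested genes from ES to HP). The 4 were Dppa3, Ctcfl, Zfp57 and Trim28. Zfp57, the zinc finger protein that binds methylated control regions, read 388 and 390 CPM at ES, 105 and 85.6 at HB, 130 and 73.7 at HE1, 58.1 and 22.8 at HE2, and 20.9 and 34.7 in HP (HP against ES a log2 fold change of -3.81, SE 0.443, edgeR adjusted p = 5.23e-05). Trim28, its corepressor, fell from 1700 CPM in ES to 720 CPM in HP (log2 fold change of -1.24, SE 0.204, edgeR adjusted p = 0.000551). Dppa3 had 931 and 490 counts in ES and 3 and 0 in HP (edgeR adjusted p = 0.000446), and in HE1 it had 3 counts in replicate 1 and 65 in replicate 2. Ctcfl had 39 and 20 counts in ES, 0 in both HP libraries, and 0 and 34 at HE1, and its call from ES to HP (edgeR adjusted p = 0.0226) was lost with DESeq2 (0.218) and without ES replicate 1 (0.0567), HP replicate 1 (0.0931) or HP replicate 2 (0.0728). Dnmt1, the maintenance DNA methyltransferase, had means between 351 and 571 CPM and was not called at any step.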
